A study of Danio rerio with 12 samples.

Results

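The larval globin genes and alas2 were followed in whole zebrafish larvae at 6 dpf (days post fertilisation) from 4 lines. The genes are the beta-globins hbbe1.1, hbbe1.2, hbbe1.3, hbbe2 and hbbe3, the alpha-globins hbae1.1, hbae1.3, hbae3 and hbae5, and alas2, 10 genes of the 31261 counted identifiers, listed by name and matched by symbol to the Ensembl identifiers. The lines were a double knock-out of panx1a and panx1b (DKO), a panx1a knock-out (panx1a-/-), a panx1b knock-out (panx1b-/-) and Tupfel long fin wild-type controls (TL), with 3 libraries each, and every library came from a separate pool of about 30 untreated larvae, which the labels give as in light. Each genotype is a single line, the panx1b-/- line was made with TALENs and descends from 1 founder, and line background cannot be told apart from genotype. Library totals ran from 20581029 to 29259122 counts. Of the 2 identifiers named PANX1, ENSDARG00000025285 had 4.24 ± 0.14 CPM (counts scaled to the library total, here after TMM normalization) in DKO, 4.27 ± 0.486 in panx1a-/-, 9.57 ± 0.403 in panx1b-/- and 13.1 ± 1.35 in TL (SD, n = 3 each), and was lower than in TL in DKO (3.08-fold) and in panx1a-/- (3.06-fold) by the test used below. In panx1b-/- it was lower than in TL past the cut-off on the adjusted p alone (log2 fold change -0.44, edgeR adjusted p = 0.0397). ENSDARG00000014910 had 4.08 ± 0.583, 8.2 ± 0.655, 6.39 ± 0.651 and 5.8 ± 1.12 CPM in DKO, panx1a-/-, panx1b-/- and TL and passed against TL in none. The name table does not tell the 2 zebrafish copies apart, so neither count could be set against the panx1b label. By RT-qPCR the paper saw no significant fall of panx1b mRNA in panx1b-/- larvae at this age, so its RNA level does not check that label.

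Globins are the oxygen-binding proteins of red cells. Alpha and beta chains join in one hemoglobin, and zebrafish swap an embryonic and larval set (hbae and hbbe) for an adult set (hbaa and hbba) as they grow. Each chain holds a heme, and ALAS2, the red-cell form of 5-aminolevulinate synthase, makes the first intermediate of heme in erythroid cells, while ALAS1 does so in other tissues. In human red cells pannexin 1 forms a membrane channel that releases ATP. In RefSeq (GRCz12tu) the hbae1 genes, hbae3, the hbbe1 genes and the adult globins lie together on chromosome 3, hbae4, hbae5, hbbe2 and hbbe3 lie together on chromosome 12, and alas2 is on chromosome 8.

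Of the 10 genes, 6 were found under their own symbol: hbbe3 (ENSDARG00000038147), hbae1.1 (ENSDARG00000089475), hbae1.3 (ENSDARG00000089124), hbae3 (ENSDARG00000079305), hbae5 (ENSDARG00000045142) and alas2 (ENSDARG00000038643). The other 4, hbbe1.1, hbbe1.2, hbbe1.3 and hbbe2, were not, because the name table gives 7 identifiers the single name HBE1. RefSeq lists 8 beta-globin genes, of which 7 have no symbol of their own in that table, these 4 and 3 adult ones, so some HBE1 reads may be of adult globins. The 7 HBE1 identifiers are therefore described beside the 6 genes, each by its identifier, and none of them is assigned to a gene. Counts of single globins are also uncertain, because tandem globin copies are near-identical and HTSeq in its standard use leaves out reads that align to more than 1 place. The 14 identifiers for larval globins and HBE1 together held 0.0209% to 0.0378% of the counts of a library.

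The globins did not move as one group. In DKO larvae hbae3 and 2 HBE1 identifiers were higher than in TL, by 1.68-fold, 3.17-fold and 3.95-fold, while the 2 HBE1 identifiers with the largest counts in TL differed less from TL and did not pass. In panx1a-/- larvae the same 2 HBE1 identifiers were lower than in TL, by 1.55-fold and 1.71-fold. In panx1b-/- larvae 1 of them was higher than TL by 2.07-fold and hbae1.1 by 3.45-fold. The hbae1.1 call rested on few reads. That call and both panx1a-/- calls were each lost in some of the fits that left out 1 library. Alas2 passed in no comparison, and the ubiquitous first enzyme of the pathway, ALAS1, was 1.87-fold lower in DKO than in TL. A gene passed when its Benjamini-Hochberg adjusted p was under 0.05 and its p under 0.001 in edgeR's quasi-likelihood test over all genes. DKO libraries 2 and 3 were more alike than any other pair within a line, so p-values of comparisons with DKO may be too small.

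**Figure D1:**
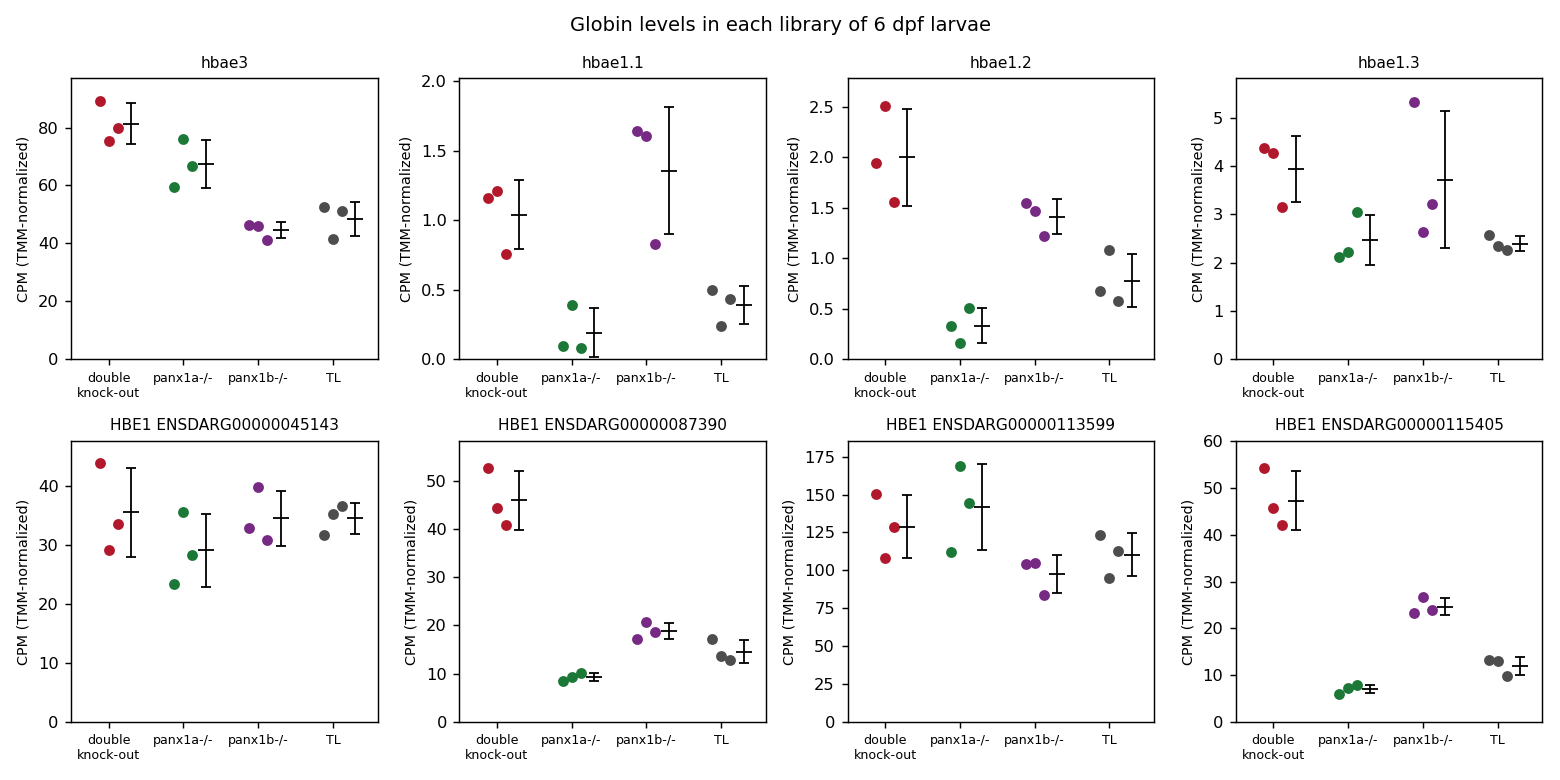
TMM-normalized CPM (vertical axis, from 0) of 4 alpha-globin genes and the 4 HBE1 identifiers with counts in every library, in the 4 lines; points are the 3 libraries of a line, the dash and bars beside them the mean and SD. HBE1 ENSDARG00000115405 lies in 4 separate bands, with DKO at 42.1 to 54.2 CPM and panx1a-/- at 5.97 to 7.76 CPM.

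Hbae3 is an embryonic and larval alpha-globin. It measured 89.1, 75.3 and 79.7 CPM in DKO, 59.3, 75.9 and 66.8 CPM in panx1a-/-, 46.5, 46.1 and 41.2 CPM in panx1b-/-, and 52.5, 41.6 and 51.2 CPM in TL. All DKO libraries stood above all panx1b-/- and TL libraries, and the highest panx1a-/- library lay between the DKO ones. The DKO level was higher than TL (log2 fold change 0.75 ± 0.10 SE, edgeR quasi-likelihood adjusted p = 0.000891) and than panx1b-/- (0.87 ± 0.09, adjusted p = 6.59e-05, 1.83-fold). The panx1a-/- level was above panx1b-/- by 1.51-fold (0.59 ± 0.10, edgeR adjusted p = 0.00253). Against TL it was 1.39-fold higher, with no overlap of libraries, but missed the cut-off on the unadjusted p (0.48 ± 0.12, edgeR adjusted p = 0.0305). DKO and panx1a-/- overlapped (0.27 ± 0.10, edgeR adjusted p = 0.105), as did panx1b-/- and TL (-0.11 ± 0.10, edgeR adjusted p = 0.577). The 3 calls of hbae3 held in all 16 alternatives run for each.

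The hbae1 genes are tandem copies of 1 alpha-globin and had few reads. Hbae1.1 was counted 25, 26 and 17 times in DKO, 2, 10 and 2 times in panx1a-/-, 36, 36 and 19 times in panx1b-/-, and 11, 5 and 12 times in TL. The DKO and panx1b-/- libraries overlapped each other and lay above all panx1a-/- and TL libraries, which also overlapped. As CPM the means were 1.04 ± 0.248 in DKO, 0.188 ± 0.176 in panx1a-/-, 1.36 ± 0.458 in panx1b-/- and 0.388 ± 0.136 in TL (SD, n = 3 each). It passed in panx1b-/- against TL (log2 fold change 1.78 ± 0.38, edgeR adjusted p = 0.0132), in DKO against panx1a-/- (2.40 ± 0.49, 5.27-fold, adjusted p = 0.00762) and in panx1a-/- against panx1b-/- (-2.78 ± 0.51, 6.87-fold lower, adjusted p = 0.00317). In DKO against TL it missed the cut-off on the unadjusted p (1.40 ± 0.35, edgeR adjusted p = 0.0215), and in panx1a-/- against TL it missed both (-1.01 ± 0.59, adjusted p = 0.345). Each of these calls was lost in some of the fits that left out 1 library. Such a fit also has fewer libraries, so a lost call does not show that the left-out library made it. The panx1b-/- call against TL was lost without TL library 2 (1.55), TL library 3 (1.87), panx1b-/- library 1 (1.61) or panx1b-/- library 2 (1.65), in log2 fold change. The DKO call against panx1a-/- was lost without panx1a-/- library 1 (2.12) or 3 (2.01) or DKO library 1 (2.31) or 2 (2.28), and the call between the single knock-outs without panx1a-/- library 3 (-2.40) or panx1b-/- library 1 (-2.62).

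Hbae1.3, the copy with more reads, had 4.39, 4.27 and 3.15 CPM in DKO, 2.12, 2.23 and 3.06 CPM in panx1a-/-, 5.32, 2.63 and 3.22 CPM in panx1b-/-, and 2.57, 2.35 and 2.27 CPM in TL. All DKO and all panx1b-/- libraries lay above TL, but the difference passed in neither (log2 fold change 0.72 ± 0.19 in DKO, edgeR adjusted p = 0.0257, and 0.64 ± 0.26 in panx1b-/-, adjusted p = 0.147). Hbae1.2, the third copy and not among the 10 genes, measured 1.94, 2.51 and 1.55 CPM in DKO, 0.329, 0.156 and 0.509 CPM in panx1a-/-, 1.55, 1.47 and 1.22 CPM in panx1b-/-, and 0.675, 1.08 and 0.577 CPM in TL. Its panx1a-/- libraries lay below and its DKO and panx1b-/- libraries above all TL libraries. It passed in DKO against panx1a-/- (2.57 ± 0.37, 5.95-fold, edgeR adjusted p = 0.000738) and in panx1a-/- against panx1b-/- (-2.07 ± 0.37, 4.21-fold lower, adjusted p = 0.00275). Against TL it missed the cut-off on the unadjusted p narrowly in DKO (1.38 ± 0.31, edgeR adjusted p = 0.0124), where 9 of 16 alternatives called it, and passed neither in panx1a-/- (-1.20 ± 0.45, adjusted p = 0.131) nor in panx1b-/- (0.88 ± 0.30, adjusted p = 0.0913). Summed over the 3 copies the level was 6.97 ± 1.34 CPM in DKO, 2.98 ± 0.582 in panx1a-/-, 6.49 ± 1.76 in panx1b-/- and 3.56 ± 0.244 in TL (SD, n = 3 each). Hbae3 held 92.3%, 90.4% and 93.6% of the counts of hbae3 and the 3 copies in DKO, 95.9%, 96.5% and 94.8% in panx1a-/-, 84.5%, 89.0% and 88.7% in panx1b-/-, and 93.3%, 91.9% and 94.0% in TL, so that panx1a-/- lay above and panx1b-/- below the other lines. Reads shared between these copies cannot be told apart, so a difference of 1 copy is less certain than their sum.

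The chromosome 12 genes found by name were near the lower limit of detection. Hbae5, an alpha-globin, had 6, 3 and 5 counts in DKO, 7, 8 and 4 in panx1a-/-, 13, 9 and 12 in panx1b-/-, and 18, 7 and 5 in TL. It passed in no comparison, although the DKO libraries lay below all panx1b-/- libraries (log2 fold change -1.22 ± 0.41, edgeR adjusted p = 0.0612). Hbbe3, the only beta-globin found by name, had 1, 0 and 2 counts in DKO, 1, 4 and 7 in panx1a-/-, 1 in each panx1b-/- library, and 3, 2 and 3 in TL. The count of 0 allows a level of up to 0.142 CPM (3 counts) in that library. Hbbe3 was not tested in comparisons with DKO, and its 3 other tests did not pass (edgeR adjusted p = 0.687 for panx1a-/- against TL, 0.381 for panx1b-/- against TL and 0.143 between them). Hbae4, its alpha-globin neighbour, had 0 to 12 counts and passed nowhere it could be tested. Its largest difference was between panx1a-/- and panx1b-/- (-1.60 ± 0.47, edgeR adjusted p = 0.0369), past the cut-off on the adjusted p alone. In CPM the DKO and panx1b-/- libraries of hbbe3 lay below all TL libraries, on at most 3 counts each, and no difference in hbbe3 passed at these counts.

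The HBE1 identifiers may hold larval or adult beta-globin reads. Of the 7, ENSDARG00000069734, ENSDARG00000089087 and ENSDARG00000097238 had 0 to 4 counts and could not be tested, and the other 4 had at least 127 counts in every library. ENSDARG00000115405 measured 54.2, 45.7 and 42.1 CPM in DKO, 5.97, 7.23 and 7.76 CPM in panx1a-/-, 23.3, 26.8 and 23.9 CPM in panx1b-/-, and 13.3, 13 and 9.81 CPM in TL. No library of 1 line overlapped a library of another. The DKO level passed against TL (log2 fold change 1.98 ± 0.14, edgeR adjusted p = 1.52e-05), panx1a-/- (2.76 ± 0.13, 6.75-fold, adjusted p = 1.32e-07) and panx1b-/- (0.94 ± 0.11, 1.92-fold, adjusted p = 0.000116). Panx1a-/- was lower than TL (-0.78 ± 0.16, edgeR adjusted p = 0.0107) and than panx1b-/- (-1.82 ± 0.12, 3.52-fold lower, adjusted p = 3.15e-06), and panx1b-/- was higher than TL (1.05 ± 0.13, adjusted p = 0.000658).

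ENSDARG00000087390, a second HBE1 identifier, measured 52.7, 44.4 and 40.8 CPM in DKO, 8.55, 9.33 and 10.1 CPM in panx1a-/-, 17.2, 20.6 and 18.7 CPM in panx1b-/-, and 17.2, 13.6 and 12.9 CPM in TL. DKO stood above and panx1a-/- below all other libraries, and panx1b-/- overlapped TL. DKO passed against TL (1.66 ± 0.13, edgeR adjusted p = 3e-05), panx1a-/- (2.30 ± 0.12, 4.91-fold, adjusted p = 2.63e-07) and panx1b-/- (1.29 ± 0.11, 2.44-fold, adjusted p = 1.53e-05). Panx1a-/- was lower than TL (-0.64 ± 0.14, edgeR adjusted p = 0.0163) and than panx1b-/- (-1.01 ± 0.12, 2.01-fold lower, adjusted p = 0.000153), and panx1b-/- against TL did not pass (0.38 ± 0.13, adjusted p = 0.0946). The calls of panx1a-/- against TL were the least stable of the 2 identifiers. Both were lost in a fit with the replicate number as a block, at log2 fold changes of -0.63 (ENSDARG00000087390) and -0.77 (ENSDARG00000115405). For ENSDARG00000087390 the call was lost without TL library 1 (log2 fold change -0.50) or without panx1a-/- library 1 (-0.59), 2 (-0.63) or 3 (-0.71), and with scaling by library size alone (-0.61), and for ENSDARG00000115405 without TL library 1 (-0.70) or 2 (-0.72) or panx1a-/- library 1 (-0.69) or 2 (-0.80).

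The other 2 HBE1 identifiers with reads passed in no comparison with edgeR. ENSDARG00000113599 had 129 ± 21 CPM in DKO, 142 ± 28.6 in panx1a-/-, 97.5 ± 12.2 in panx1b-/- and 110 ± 14.4 in TL (SD, n = 3 each). Its lowest p-values were for panx1a-/- against panx1b-/- (0.54 ± 0.15, edgeR adjusted p = 0.0246) and DKO against panx1b-/- (0.40 ± 0.12, edgeR adjusted p = 0.0425). Its libraries did not overlap in either comparison. Between panx1a-/- and panx1b-/- it passed with DESeq2 (0.54) and without panx1a-/- library 1 (0.68). ENSDARG00000045143 had 35.5 ± 7.54 CPM in DKO, 29 ± 6.15 in panx1a-/-, 34.5 ± 4.65 in panx1b-/- and 34.4 ± 2.58 in TL, its libraries overlapped in every pair of lines, and its log2 fold changes lay between -0.25 and 0.29.

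**Figure D2:**
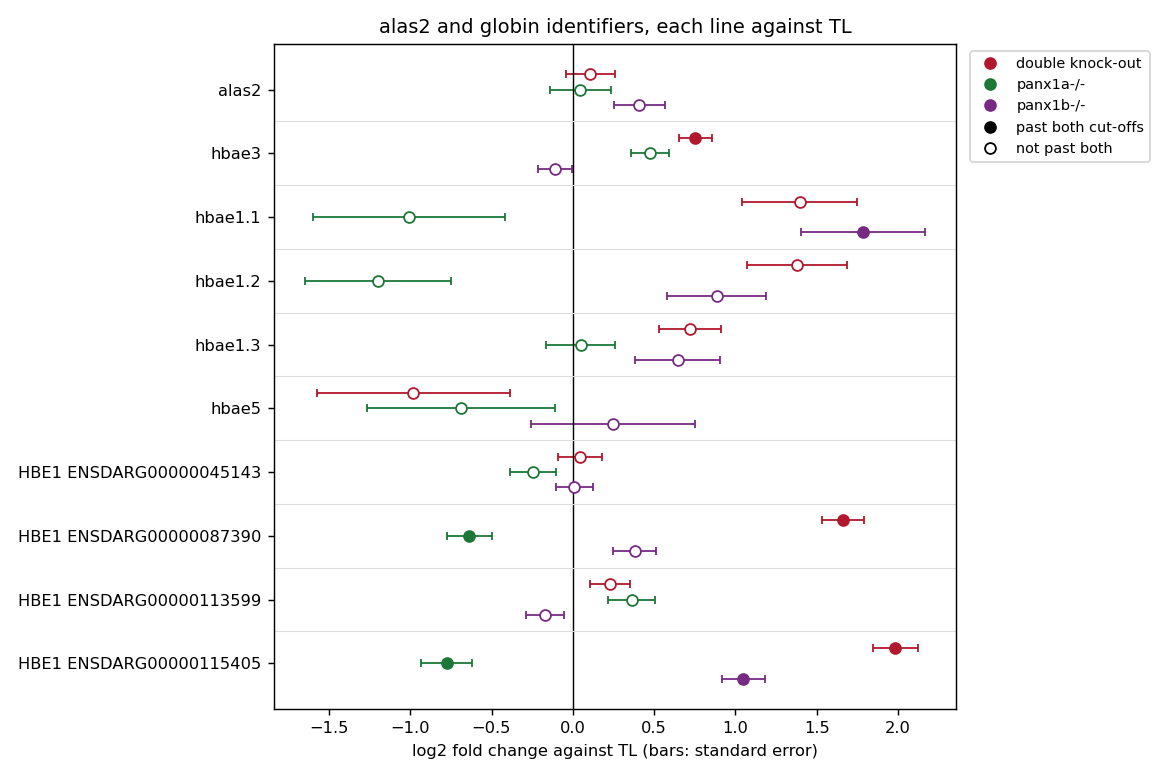
Log2 fold change against TL (horizontal axis) with standard errors for alas2, the alpha-globins and 4 HBE1 identifiers in DKO, panx1a-/- and panx1b-/- larvae; filled points passed both cut-offs and hbbe3 is left out for its low counts. HBE1 ENSDARG00000087390 and ENSDARG00000115405 lie to the left of 0 in panx1a-/- and to the right in DKO and panx1b-/-.

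The make-up of the HBE1 reads differed between the lines. ENSDARG00000087390 and ENSDARG00000115405 together held 35.5%, 39.6% and 33.9% of HBE1 counts in DKO, 9.68%, 7.49% and 9.39% in panx1a-/-, 22.7%, 24.7% and 27.2% in panx1b-/-, and 16.5%, 16.9% and 13.2% in TL. The 4 lines did not overlap in this share, which needs no scaling between libraries. The ratio of ENSDARG00000115405 to ENSDARG00000087390 counts also differed, at 1.03, 1.03 and 1.03 in DKO, 0.698, 0.774 and 0.764 in panx1a-/-, 1.36, 1.3 and 1.28 in panx1b-/-, and 0.770, 0.955 and 0.762 in TL. Panx1b-/- lay above the rest, and panx1a-/- overlapped TL. Summed HBE1 counts were 258 ± 38.5 CPM in DKO, 187 ± 35.7 in panx1a-/-, 176 ± 17.6 in panx1b-/- and 171 ± 14.4 in TL (SD, n = 3 each), with DKO above every other library.

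**Figure D3:**
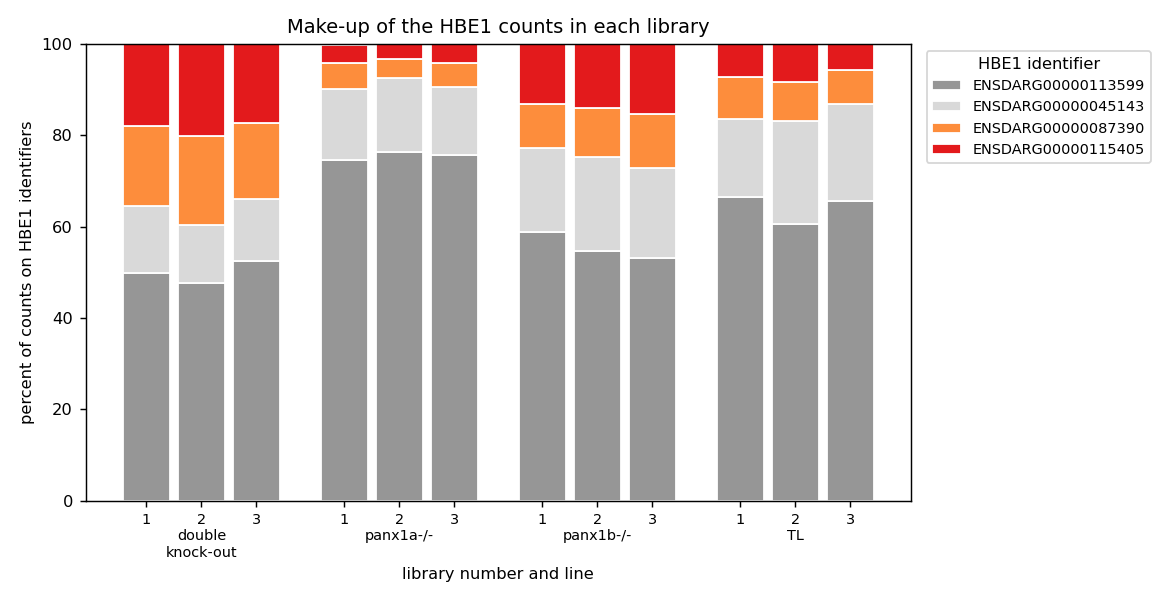
Share of the counts on the HBE1 identifiers (vertical axis, percent) taken by each of the 4 with reads, in the 12 libraries; the 3 others, at most 0.125% each, are not drawn. The upper bands, ENSDARG00000087390 and ENSDARG00000115405, took 33.9% to 39.6% in DKO and 7.49% to 9.68% in panx1a-/-.

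With 5 or 6 members tested in a comparison, the counts that passed cannot be set apart from the shares over all genes. In DKO against TL, 5 of the 6 members could be tested, 1 was higher (hbae3) and 0 lower, where 8.09% of the 24896 genes tested passed, 2.81% higher and 5.28% lower. In panx1a-/- against TL, 0 of 6 passed, where 5.18% of all genes did, 2.29% higher and 2.89% lower. There hbae3 was the only member with an unadjusted p under 0.05 by edgeR, and it passed with DESeq2. In panx1b-/- against TL, 1 of 6 was higher (hbae1.1) and 0 lower, where 5.96% of all genes passed, 2.8% higher and 3.16% lower. In DKO against panx1a-/-, 1 of 5 was higher (hbae1.1) and 0 lower, where 6.34% of all genes passed, 2.58% higher and 3.76% lower. In DKO against panx1b-/-, 1 of 5 was higher (hbae3) and 0 lower, where 9.32% of all genes passed, 3.84% higher and 5.48% lower. Between panx1a-/- and panx1b-/-, 1 of 6 was higher (hbae3) and 1 lower (hbae1.1), where 8.87% of all genes passed, 4.43% higher and 4.45% lower.

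The median log2 fold change of the tested members was 0.72 in DKO, 0.05 in panx1a-/- and 0.33 in panx1b-/- against TL, where the medians over all genes were 0.00, -0.01 and 0.01. Libraries of the compared lines did not overlap for 3 of 5 members in DKO against TL (35.4% of all genes), 1 of 6 in panx1a-/- against TL (28.4%), 3 of 6 in panx1b-/- against TL (29.6%), 2 of 5 in DKO against panx1a-/- (30.9%), 3 of 5 in DKO against panx1b-/- (35.7%) and 4 of 6 in panx1a-/- against panx1b-/- (35.4%). Of the 4 HBE1 identifiers tested, 2 were higher in DKO (2.81% of all genes), 2 lower in panx1a-/- (2.89%) and 1 higher in panx1b-/- (2.8%), all against TL.

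The design also allows a test of whether the DKO level departs from the product of the single knock-out changes. For ENSDARG00000087390 the DKO level was 3.79-fold that product (log2 1.92 ± 0.18, edgeR adjusted p = 7.64e-06) and for ENSDARG00000115405 it was 3.28-fold (1.71 ± 0.19, adjusted p = 4.07e-05). Both held in all 21 alternatives run. None of the 5 members tested passed with edgeR or DESeq2, where 5.33% of all genes did with edgeR, 2.56% above and 2.76% below the product. Hbae3 (0.39 ± 0.16, edgeR adjusted p = 0.14) was the only 1 of the 5 with an unadjusted p under 0.05 by edgeR, and hbae1.2 had 1.69 ± 0.50 (edgeR adjusted p = 0.0452).

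Alas2, the erythroid entry enzyme of heme synthesis, measured 7.95, 7.79 and 7.58 CPM in DKO, 6.2, 7.11 and 9.05 CPM in panx1a-/-, 10.4, 9.3 and 8.93 CPM in panx1b-/-, and 9, 6.38 and 6.35 CPM in TL. Panx1b-/- was the highest line and stood clear of DKO, and every other neighbour in the order TL, panx1a-/-, DKO, panx1b-/- overlapped. Alas2 passed nowhere, with log2 fold changes against TL of 0.11 ± 0.15 in DKO (edgeR adjusted p = 0.658), 0.05 ± 0.19 in panx1a-/- (adjusted p = 0.919) and 0.41 ± 0.16 in panx1b-/- (adjusted p = 0.132).

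The other genes of heme synthesis make the pigment from the product of that first step. The 8 identifiers described here were all tested. ALAS1 (ENSDARG00000021059), the form of the first enzyme used outside red cells, measured 69.2, 67.6 and 71.9 CPM in DKO, 113, 99.6 and 125 CPM in panx1a-/-, 139, 129 and 169 CPM in panx1b-/-, and 140, 104 and 147 CPM in TL. All DKO libraries lay below all others, and panx1a-/- and panx1b-/- each overlapped TL. ALAS1 was lower in DKO than in TL (-0.90 ± 0.12, edgeR adjusted p = 0.000705), panx1a-/- (-0.69 ± 0.10, 1.62-fold lower, adjusted p = 0.000571) and panx1b-/- (-1.06 ± 0.11, 2.09-fold lower, adjusted p = 5.71e-05). It did not pass in panx1a-/- (-0.21 ± 0.13) or panx1b-/- (0.17 ± 0.14) against TL, and the DKO level was below the product of the single changes (-0.86 ± 0.19, edgeR adjusted p = 0.00852), a call lost without panx1a-/- library 3 (-0.77).

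None of the other heme synthesis identifiers described passed in any comparison with edgeR. ALAD, which joins 2 molecules of aminolevulinate, had -0.49 ± 0.15 in DKO (edgeR adjusted p = 0.0466), -0.49 ± 0.17 in panx1a-/- and -0.33 ± 0.16 in panx1b-/- as log2 fold changes against TL. Enzymes of later steps had 0.07 ± 0.11 (uros), -0.39 ± 0.18 (UROD), -0.26 ± 0.18 (CPOX) and 0.27 ± 0.14 (PPOX) in DKO, and FECH, which puts the iron into the ring, had 0.08 ± 0.09. In panx1a-/- 6 of the 8 values were below 0 and in panx1b-/- 6 of 8 above 0, and the medians were -0.10 in DKO, -0.23 in panx1a-/- and 0.13 in panx1b-/-.

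**Figure D4:**
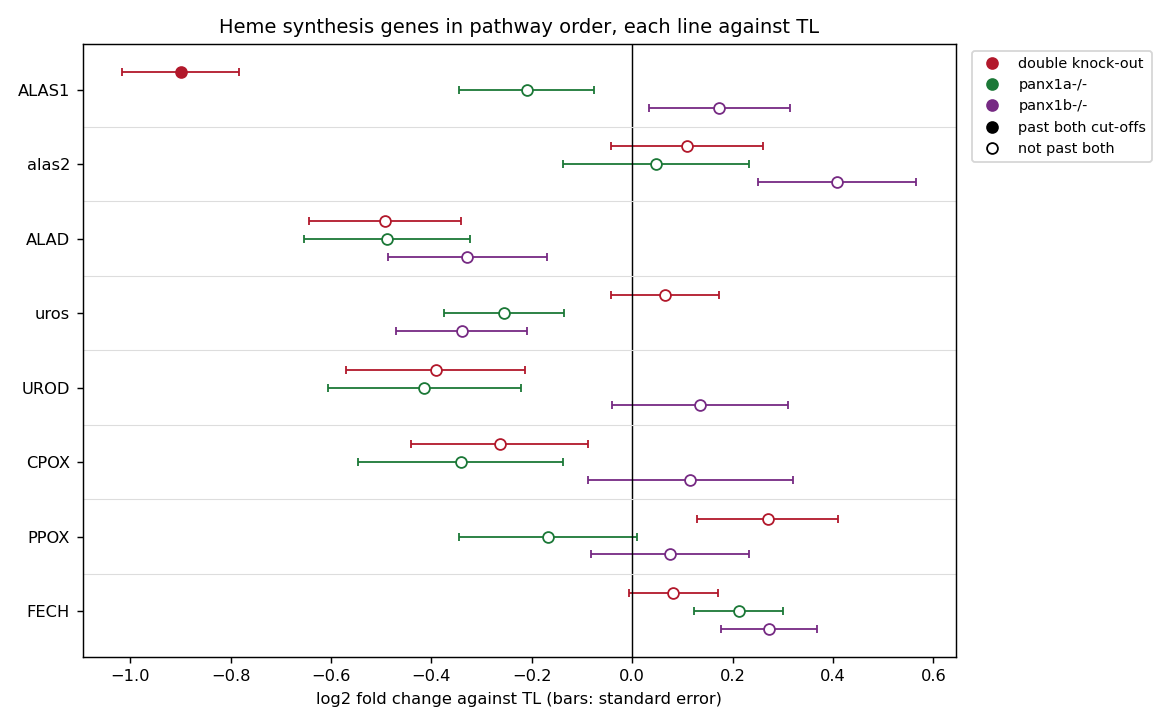
Log2 fold change against TL (horizontal axis) with standard errors for 8 heme synthesis genes from the first enzyme (top) to ferrochelatase (bottom); filled points passed both cut-offs. ALAS1 in DKO (-0.90) is the single filled point.

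Some genes that handle iron and heme passed in DKO, where alas2 did not. Of 27 identifiers for iron and heme transport, 3 were higher and 2 lower in DKO against TL, where 8.09% of all genes passed. In panx1a-/- 0 were higher and 1 lower (5.18% of all genes) and in panx1b-/- 1 was higher and 0 lower (5.96% of all genes), shares no larger than those of all genes. The medians were -0.08 in DKO, -0.11 in panx1a-/- and -0.05 in panx1b-/-. The transferrin receptors tfr1a and tfr1b bring iron into cells, and tfr1a is the one that larval red cells depend on. Tfr1a measured 5.13, 5.57 and 5.14 CPM in DKO, 7.71, 6.95 and 7.79 CPM in panx1a-/-, 14.8, 11.7 and 11.9 CPM in panx1b-/-, and 12.6, 9.86 and 11.6 CPM in TL. DKO was lowest and panx1a-/- next, both clear of TL, and panx1b-/- overlapped TL. Tfr1a passed in DKO (-1.1 ± 0.13, 2.14-fold lower, edgeR adjusted p = 0.000409) and in panx1a-/- (-0.60 ± 0.13, 1.52-fold lower, adjusted p = 0.0169), the second call being lost without any 1 of TL library 1 (-0.52), TL library 3 (-0.59) or the panx1a-/- libraries 1 (-0.63), 2 (-0.55) and 3 (-0.64), and with scaling by library size alone (-0.57).

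Tfr1b, the broadly expressed copy, measured 19.5, 19.8 and 21.1 CPM in DKO, 44.7, 35.8 and 41.9 CPM in panx1a-/-, 50.1, 36.1 and 43.2 CPM in panx1b-/-, and 51.2, 34.8 and 45.6 CPM in TL. DKO stood apart from the 3 other lines and was lower than TL (log2 fold change -1.12 ± 0.13, edgeR adjusted p = 0.000319). TFR2, a second kind of transferrin receptor that senses iron in liver and red cells, measured 10.3, 9.37 and 9.36 CPM in DKO, 4.18, 1.25 and 3.68 CPM in panx1a-/-, 2.5, 2.31 and 3.62 CPM in panx1b-/-, and 3.96, 3.1 and 3.25 CPM in TL, with the DKO libraries above all others. TFR2 was 2.82-fold higher in DKO than in TL (1.5 ± 0.14, edgeR adjusted p = 9.16e-05). Hamp, the liver hormone that limits iron export and a gene picked after its values were seen, had 9.93, 5.29 and 7.32 CPM in DKO, 0.94, 0.312 and 1.1 CPM in panx1a-/-, 0.319, 0 and 0.348 CPM in panx1b-/-, and 1.53, 2.21 and 2.63 CPM in TL. It passed in DKO (1.81 ± 0.26, 3.50-fold, edgeR adjusted p = 0.00121), and was not tested in panx1b-/- for its count of 0. In panx1a-/- the hamp libraries lay below all TL libraries (-1.45 ± 0.38, 2.74-fold lower, edgeR adjusted p = 0.0378), past the cut-off on the adjusted p alone, and hamp passed there with DESeq2. SLC40A1, the iron exporter ferroportin and likewise picked later, was the 1 higher in panx1b-/- (0.52 ± 0.08, edgeR adjusted p = 0.00266) and was also higher in DKO (0.39 ± 0.08, adjusted p = 0.00609), a call lost without TL library 1 (0.41) or 3 (0.42) or DKO library 2 (0.39) or 3 (0.40).

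Of 6 identifiers for heme breakdown, 1 passed in DKO (8.09% of all genes) and 0 in panx1a-/- (5.18%) and panx1b-/- (5.96%) against TL. HMOX1, the inducible heme oxygenase that opens the heme ring, measured 50.4, 48.8 and 52.7 CPM in DKO, 17.6, 13.4 and 16.7 CPM in panx1a-/-, 9.47, 9.04 and 12.4 CPM in panx1b-/-, and 17.7, 13.1 and 14.4 CPM in TL. The DKO level was 3.37-fold that of TL (1.75 ± 0.11, edgeR adjusted p = 1.13e-05), and panx1b-/- libraries lay below all TL libraries without passing (-0.54 ± 0.16, adjusted p = 0.0522). Blvrb, biliverdin reductase B, is an enzyme abundant in red cells and was listed with the red-cell enzymes, not among these 6. It had 5.98 ± 0.194 CPM in DKO, 8.93 ± 1.37 in panx1a-/-, 16.7 ± 2.07 in panx1b-/- and 16.5 ± 0.714 in TL (SD, n = 3 each). It was lower in DKO (-1.46 ± 0.11, edgeR adjusted p = 2.03e-05) and in panx1a-/- (-0.89 ± 0.13, adjusted p = 0.00162) than in TL.

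**Figure D5:**
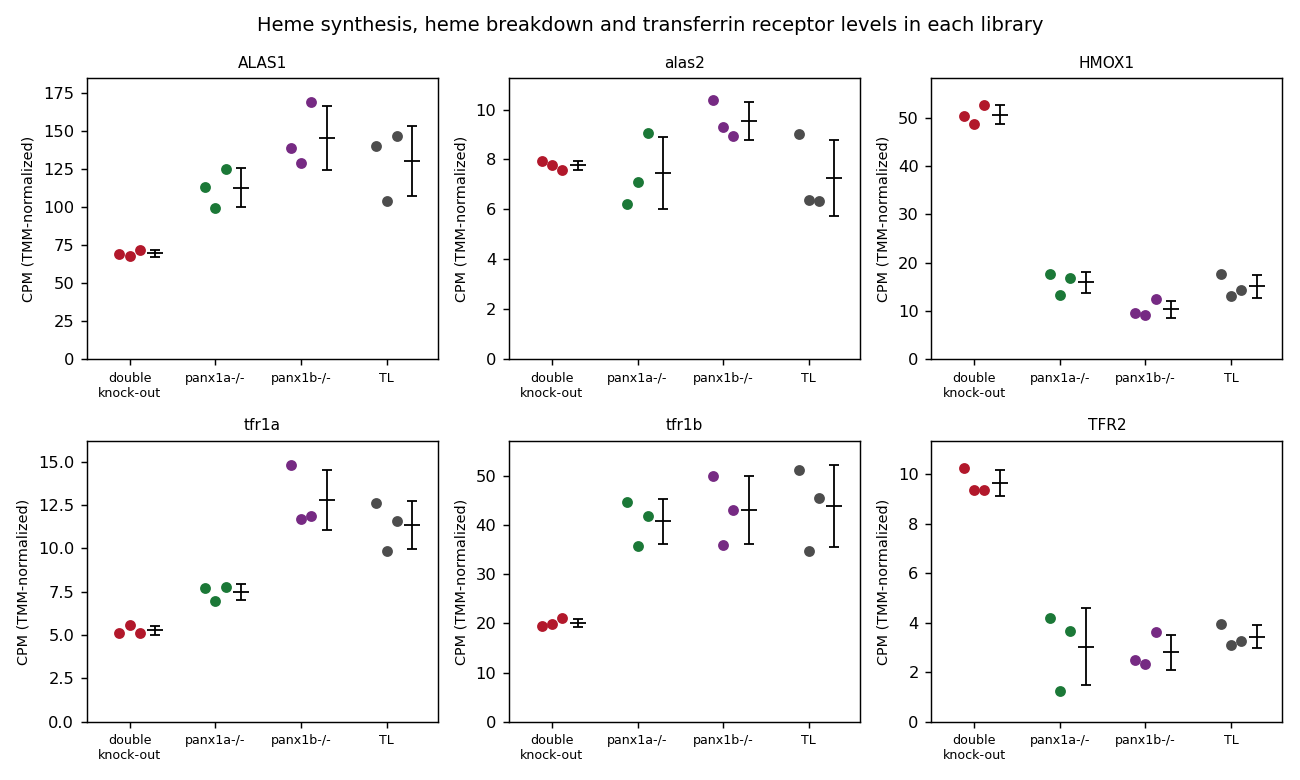
TMM-normalized CPM (vertical axis, from 0) of ALAS1, alas2, HMOX1 and 3 transferrin receptors in the 4 lines; points are the 3 libraries of a line, the dash and bars beside them the mean and SD. HMOX1 and TFR2 are highest and ALAS1 and tfr1b lowest in DKO, with alas2 at 7.58 to 7.95 CPM there, inside the TL range.

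Red cells were present in every pool by their markers. All 8 defining red-cell identifiers (2 for the anion exchanger SLC4A1, gata1a, klf1, RHAG, the carbonic anhydrase cahz, the spectrin SPTB and alas2) were counted in every library and none was at 0. Their summed level ranged from 315 to 366 CPM in DKO, 303 to 387 in panx1a-/-, 291 to 339 in panx1b-/- and 274 to 344 in TL, and 0 of 8 passed in any comparison by edgeR, where 5.18% to 9.32% of all genes passed between 2 lines, so that 0 of 8 is near the background. Against TL, 3 in DKO, 1 in panx1a-/- and 3 in panx1b-/- had an unadjusted p under 0.05 by edgeR. Over all genes 7994 of 24896, 5874 of 24987 and 6266 of 24860 did. With DESeq2 2 passed in panx1b-/- and 0 in DKO and panx1a-/-. Over all genes DESeq2 called 860 higher and 1089 lower in panx1b-/-, 973 and 1570 in DKO, and 749 and 953 in panx1a-/-. The red-cell list named slc4a1a alone, and the name table gives both SLC4A1 identifiers 1 name, so 1 of them may be another copy that does not mark red cells. In panx1a-/- against TL they had -0.44 ± 0.15 (ENSDARG00000012881) and 0.08 ± 0.12 (ENSDARG00000024560). In whole larvae a difference in red-cell number and one in RNA per cell cannot be told apart. Leukocyte markers summed to 123 to 131 CPM in DKO, 138 to 153 in panx1a-/-, 125 to 139 in panx1b-/- and 122 to 231 in TL, and thrombocyte markers to 216 to 285, 337 to 392, 247 to 270 and 314 to 358 CPM in DKO, panx1a-/-, panx1b-/- and TL. The thrombocyte list was looked at gene by gene after its sum was seen. Of its 6 identifiers 1 was lower in DKO against TL, where 5.28% of all genes were, so the list cannot be set apart from that background. THBS1 ENSDARG00000010785 had -0.54 ± 0.11 (edgeR adjusted p = 0.00879). Its call was lost without TL library 1 or 3 or DKO library 2 or 3, at -0.45 to -0.52. THBS1 ENSDARG00000103775 had -0.34 ± 0.11. Values above 0 that did not pass were those of itga2b (0.39 ± 0.30), mpl (0.19 ± 0.31), GP1BB (0.49 ± 0.24) and gp9 (0.68 ± 0.51). The median of the list was 0.29, so that its sum and its median differ in sign. The part of these cells in the globin differences was not tested.

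Among 13 identifiers of erythroid transcription factors, 2 were lower in DKO (8.09% of all genes passed), 1 lower in panx1a-/- (5.18%) and 1 lower in panx1b-/- (5.96%) against TL, with 0 higher. At 1 or 2 calls the list cannot be set apart from that background. MYB, a factor of blood progenitors, passed in DKO (-0.56 ± 0.09, edgeR adjusted p = 0.00293) and panx1a-/- (-0.55 ± 0.11, adjusted p = 0.00993). Bcl11ab is a copy of BCL11A, the factor that silences fetal globin in humans, and passed in DKO (-0.46 ± 0.08, edgeR adjusted p = 0.00378) and panx1b-/- (-0.48 ± 0.09, adjusted p = 0.00538). The MYB call in DKO was lost without TL library 3 (-0.52) or DKO library 3 (-0.53), and that in panx1a-/- without TL library 1 (-0.56) or 3 (-0.52) or panx1a-/- library 1 (-0.48) or 3 (-0.57). The bcl11ab call in DKO was lost without TL library 3 (-0.42) or DKO library 2 (-0.46) or 3 (-0.43), and that in panx1b-/- without TL library 3 (-0.45) or panx1b-/- library 2 (-0.47). Gata1a (-0.52 ± 0.31 in DKO) and klf1 (-0.35 ± 0.27 in DKO), master factors of red-cell genes, did not pass in any line, and neither did TAL1, LMO2, NFE2, ZFPM1, klf17, BCL11A, GFI1B or the 2 LDB1 identifiers.

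Globins of other tissues and of adult red cells were read as well. Of 9 other globin identifiers, which include the larval hbae1.2 and hbae4, 6 could be tested against TL. In panx1a-/- 2 were higher (mb and CYGB) and 0 lower, where 5.18% of all genes passed. In DKO (8.09% of all genes) and panx1b-/- (5.96%) 0 of the 6 passed. Mb, the oxygen store of muscle, measured 42.2, 28.3 and 29.8 CPM in DKO, 58.7, 74.9 and 61.7 CPM in panx1a-/-, 52.8, 49.6 and 26.8 CPM in panx1b-/-, and 34.1, 26.9 and 30.1 CPM in TL. Panx1a-/- stood above TL (1.1 ± 0.12, 2.14-fold, edgeR adjusted p = 0.000261), and DKO overlapped TL (0.14 ± 0.14, adjusted p = 0.535) and lay below panx1a-/- (-0.96 ± 0.14, 1.95-fold lower, adjusted p = 0.00101). CYGB, a cytoglobin of many tissues, was 1.47-fold higher in panx1a-/- than in TL (0.55 ± 0.10, edgeR adjusted p = 0.00606), which was lost without panx1a-/- library 3 (0.51). NGB, cygb2 and xgb, globins of nerve cells and other tissues, passed in no comparison. The adult alpha-globins hbaa1 and hbaa2 had 0 to 8 and 0 to 2 counts.

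Of 20 identifiers for red-cell membrane proteins and enzymes, 2 were higher and 3 lower in DKO (8.09% of all genes passed), 0 higher and 2 lower in panx1a-/- (5.18%) and 0 higher and 3 lower in panx1b-/- (5.96%) against TL. The higher ones in DKO, picked here after their values were seen, were hemgn (hemogen, a nuclear protein of red-cell precursors, 0.60 ± 0.12, edgeR adjusted p = 0.00627) and epb41b (a membrane skeleton protein, 0.57 ± 0.11, adjusted p = 0.00563). The hemgn call was lost without TL library 3 (0.65) or DKO library 2 (0.55) or 3 (0.61), and the epb41b call without TL library 3 (0.57) or DKO library 1 (0.54) or 2 (0.55). The lower ones in DKO were blvrb and 2 RHCG identifiers, ENSDARG00000003203 (-2.11 ± 0.21, edgeR adjusted p = 0.000132) and ENSDARG00000007080 (-1.96 ± 0.23, adjusted p = 0.000405). RHCG proteins carry ammonia in skin and gill ionocytes and are not markers of red cells. Both were lower in panx1b-/- too (-1.68 ± 0.21 for ENSDARG00000003203 and -1.88 ± 0.23 for ENSDARG00000007080). The others that passed, also picked after their values were seen, were lower. GYPC, a glycophorin of the red-cell membrane, passed in panx1a-/- (-0.81 ± 0.18, edgeR adjusted p = 0.0179) and missed the cut-off on the unadjusted p in DKO (-0.71 ± 0.16, adjusted p = 0.0145) and panx1b-/- (-0.69 ± 0.19, adjusted p = 0.0394). AQP1 ENSDARG00000023713, a water channel, passed in panx1b-/- (-0.52 ± 0.11, edgeR adjusted p = 0.0107). The GYPC call was lost without TL library 1 (-0.74) or 3 (-0.76) or panx1a-/- library 1 (-0.86), 2 (-0.85) or 3 (-0.73), and the AQP1 call without TL library 1 (-0.53) or 3 (-0.47) or panx1b-/- library 1 (-0.56), 2 (-0.57) or 3 (-0.45). SPTB, a spectrin picked in the same way, had -0.34 ± 0.09 in DKO (edgeR adjusted p = 0.0309) and -0.36 ± 0.09 in panx1b-/- (adjusted p = 0.029), past the adjusted p alone.

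By position, ern1 alone passed against TL among the genes named here from beside the globin loci in RefSeq order. Over all genes 5.18% to 8.09% passed against TL. Neighbours without a matching identifier, and those of alas2, are not described. On chromosome 3, NPRL3, whose introns hold the globin enhancer in mammals and fish, had log2 fold changes of 0.25 ± 0.11 in DKO, 0.03 ± 0.12 in panx1a-/- and 0.07 ± 0.13 in panx1b-/- against TL, and passed in none. MPG, aanat2, KANK2 and DOCK6 also passed in none, and ern1, the fifth gene beyond the cluster and named for having passed, was higher in DKO (0.88 ± 0.09, edgeR adjusted p = 0.00013). On chromosome 12, foxj1b, ubald1a, aqp8a.2 and LCMT1 passed in none.

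By likeness of pattern over the 12 libraries, among 20061 genes, alas2 was followed most closely by MCTP1 (Pearson r 0.919), si:dkeyp-86f7.4 (0.913), INO80C (0.913), MED4 (0.885) and ARHGEF28 (0.883). The summed CPM of the 5 globin members, which is mostly hbae3, was followed by h2af1al (0.979), ITGA10 (0.957), MINK1 (0.957), gstt1b (0.957) and lonrf4 (0.957). Spearman's rho was 0.923 for alas2 with MCTP1 and 0.965 for the globin sum with h2af1al, and over the deviations from line means r was 0.862 and 0.888. These are descriptions over libraries that share line and preparation. H2af1al, a histone H2A gene, averaged 3.68 CPM in DKO, 2.44 in panx1a-/-, 0.671 in panx1b-/- and 0.933 in TL, and the summed globin members 86.6 ± 7.40, 70.4 ± 8.55, 50.2 ± 4.13 and 51.8 ± 6.30 CPM (SD, n = 3 each) in DKO, panx1a-/-, panx1b-/- and TL.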

How the data were processed

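Whole larvae at 6 dpf were sequenced from 12 pools in 4 lines. Per the labels, the authors made counts per Ensembl gene with bcl2fastq 2.17, FastQC 0.11.2, Trim Galore 0.4.4, TopHat2 2.0.11 and HTSeq 0.6.1p2 on danRer11, as the submitters' processing notes name them, and deposited them as raw counts, 1 table per library, with 20581029 to 29259122 counts each. Whether strand was used in counting is not given in the sources used here, so reads of antisense or overlapping genes cannot be told apart. The study's own transcript-level estimates and tests were not used. Libraries were grouped by their labels.

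Identifiers were named with a table that covered 90.3% of the 31261 identifiers. RefSeq (GRCz12tu) served for chromosomes and neighbours alone, and no sequences were used. The members and lists were chosen with earlier results of these data known. Named genes were all members, the heme synthesis, other globin and erythroid transcription factor lists, the PANX1 identifiers, and up to 3 passing genes of each further list with the lowest p against TL, apart from those said to be picked later. Some items of these lists are not reported here.

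The counts went into edgeR 4.0.16 under R 4.3.3, with TMM factors and the quasi-likelihood test. A gene entered when none of the fitted libraries was below 1 count. Each fit held the compared lines alone, and the interaction all 12 libraries. A gene passed at Benjamini-Hochberg adjusted p under 0.05 and p under 0.001, the cut-offs of the study. SE is the log2 fold change divided by the root of its F. CPM used TMM factors over all 12 libraries. An exact permutation test of 3 against 3 libraries cannot go below p = 0.1 and was not used. Likeness was ranked on log2(CPM + 0.5), leaving out genes averaging under 1 CPM. Alternatives were DESeq2 1.42.0 and its size factors, library size alone, totals without globins, other filters on low counts, a replicate block, all 12 libraries in one fit, the adjusted p alone, and leaving out each library. The fits were tested on simulated data in which the changed genes averaged at least 1 CPM, so changes in genes with fewer reads were not covered. The floor of 3 counts covers counting error only. Pools are separate samples of larvae, and nothing says whether they came from separate parents, so p-values measure the spread between pools. DKO libraries 2 and 3 were more alike (chi2/df 2.845 between their counts) than any other pair of libraries within a line (10.16 to 24.63). The tests treat the 3 DKO libraries as independent, so p-values of comparisons with DKO may rest on too small a spread. Why libraries 2 and 3 were so alike was not tested.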

Additional observations from a re-analysis of the deposited data

Results flagged for a closer look

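In 14 of the genes described or listed here the double knock-out departed from the product of the 2 single knock-out changes past both cut-offs in edgeR's test of the interaction (log2 of the DKO level over that product, 12 libraries). Of all 24261 genes tested, 5.33% did so. The 14 cannot be set against that share, because some of the genes were named for passing against TL or were picked later. Each of the 14 was singled out for this difference between the effect of one genotype with and without the other. Above the product were HMOX1 (2.22), TFR2 (1.97), HBE1 ENSDARG00000087390 (1.92), HBE1 ENSDARG00000115405 (1.71), MPEG1 ENSDARG00000043093 (1.48), a macrophage pore protein, ACO1 (0.65), an iron-responsive protein, and ern1 (0.60), a sensor of endoplasmic reticulum stress. Below it were STEAP3 (-1.80), an iron reductase, mb (-1.47), PANX1 ENSDARG00000014910 (-1.15), tfr1b (-0.99), ALAS1 (-0.86), EPAS1 ENSDARG00000008697 (-0.71), a hypoxia-inducible factor, and kdrl (-0.58), a receptor of endothelium. ACO1, STEAP3 and kdrl were picked after their values were seen. The STEAP3 call, at 8 to 23 counts per library, held in 9 of 20 alternatives and the kdrl call in 12 of 21. The MPEG1 call was lost in 9 of the 12 fits that left out 1 library (1.2 to 1.52), the TFR2 call without panx1b-/- library 2 (1.84) and the ALAS1 call without panx1a-/- library 3 (-0.77). With 3 libraries per line, no library was tested for standing apart within its line.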

How the results depend on the processing

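No named gene turned its direction while called. Of 7475 single-gene values under an alternative, 7206 kept their side of the cut-offs, 157 lost a call and 112 gained one. A value called in neither fit counts as kept even if its sign changed. In panx1a-/- against TL the count of members that passed was 0, and 1 (hbae3) with the adjusted p alone, library size alone, DESeq2 or all 12 libraries in one fit; the HBE1 count was 2, and 1 with library size alone and 0 with the replicate block. At least 10 counts in every library left out hbae1.1 and so gave 0 members in panx1b-/- against TL and in DKO against panx1a-/- (1 each otherwise), and 1 between panx1a-/- and panx1b-/- (otherwise 2). The adjusted p alone gave 3 members (otherwise 1) and 2 heme synthesis genes (otherwise 1) in DKO against TL, 2 heme synthesis genes (otherwise 1) in DKO against panx1b-/-, and 3 (otherwise 1) for the interaction, for which DESeq2 gave 2. Leaving out each library in turn, members that passed ranged from 0 to 1 in panx1a-/- against TL, panx1b-/- against TL and DKO against panx1a-/-, and from 1 to 2 between panx1a-/- and panx1b-/-; HBE1 identifiers from 0 to 2 in panx1a-/- against TL; and heme synthesis genes from 0 to 2 for the interaction. Replicate numbers were not taken to pair the libraries. Correlations of same-numbered deviations between lines lay between -0.15 and 0.295, and in 0 of 6 pairs of lines were all 3 over 0.1. Whether some same-numbered libraries shared a batch was not tested. The block also ended the panx1a-/- calls against TL of tfr1a (-0.59), MYB (-0.56) and GYPC (-0.80), the panx1b-/- call of THBS1 ENSDARG00000010785 (-0.41) and the interaction call of kdrl (-0.58), and no other call of a named gene. The replicate block changed no other count of members, HBE1 identifiers or heme synthesis genes. With it, genes higher and lower against TL were 870 and 1491 in DKO (otherwise 700 and 1315) and 447 and 631 in panx1a-/- (otherwise 572 and 722). In panx1b-/- they were 759 and 906 (otherwise 696 and 786). DKO had 555 and 838 against panx1a-/- (otherwise 645 and 938) and 1494 and 1746 against panx1b-/- (otherwise 953 and 1359). Between the single knock-outs they were 1267 and 1292 (otherwise 1102 and 1107). Over all genes the adjusted p alone called 4320 in DKO (otherwise 2015), 2214 in panx1a-/- (otherwise 1294) and 2746 in panx1b-/- (otherwise 1482) against TL, 3140 (otherwise 1583) in DKO against panx1a-/-, 4551 (otherwise 2312) in DKO against panx1b-/-, 4404 (otherwise 2209) between the single knock-outs and 2249 (otherwise 1292) for the interaction. Without TL library 3 the counts against TL were 1109 in DKO, 779 in panx1a-/- and 875 in panx1b-/-. Without panx1a-/- library 3, 834 genes passed in panx1a-/- against TL. Without DKO library 2, 1256 passed against TL, 985 against panx1a-/- and 1495 against panx1b-/-, and without DKO library 3, 1139, 880 and 1441. Leaving out DKO library 1 gave 560 higher and 1037 lower against TL, 943 and 1029 against panx1a-/-, and 854 and 1219 against panx1b-/-. Hbae1.1, hbae5 and hbbe3, at 0 to 36 counts per library, rest on few counted reads, and why so few were counted was not tested. The causes of these differences between settings were not tested.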
